A study of Mus with 10 samples.

Results

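The Krüppel-like factors described here are 8 members of the KLF family of transcription factors, *Klf2*, *Klf3*, *Klf4*, *Klf6*, *Klf7*, *Klf10*, *Klf11* and *Klf13*. They were chosen by name from the 24564 genes of the deposited count table, with earlier results of these data known, and the rule itself uses no measured value. The RNA came from type 1 innate lymphoid cells (ILC1s), lymphocytes that reside in tissue. They were sorted from livers of C57BL/6 mice aged 6 to 8 weeks. The paper gives the mice as male or female, while every library held Y-linked reads and almost no *Xist*, as male cells do. One group was wild type at *Ncr1*, the gene of the activating receptor NKp46 (Ncr1+/+, 5 libraries). The other carried *gfp* in place of *Ncr1* on both alleles (Ncr1gfp/gfp, 5 libraries), so NKp46 was lost in every cell type that uses the locus and not only in ILC1s. Both groups were gated as lineage-negative NK1.1+ CD49b- CD49a+ cells, the Ncr1+/+ cells also by NKp46 and the Ncr1gfp/gfp cells also by GFP, so the gate differed with the genotype. The sources do not say whether each library stands for 1 mouse, and the p-values below measure the spread between these libraries.

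KLF proteins carry a row of zinc fingers at the carboxy terminus with which they bind GC-rich and CACCC sequences in promoters and enhancers. Their amino-terminal parts differ, and these decide whether a member activates or represses its targets, through partners such as p300, CtBP or SIN3A. In lymphocytes KLF2 is known for keeping cells quiescent and for driving the genes that let them recirculate, and KLF10 and KLF11 were first found as early targets of TGF-β. Several members are transcribed quickly and briefly after a stimulus, as the immediate early genes of the FOS and JUN families are. Since the RNA was measured in bulk, fewer cells that express a gene and less RNA per cell cannot be told apart.

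The libraries held between 15796253 and 22623133 counts, so that 3 counts in a library correspond to between 0.133 and 0.190 CPM, the TMM-scaled count relative to library size. *Ncr1* itself had between 141 and 356 CPM in Ncr1gfp/gfp libraries and between 1913 and 2144 CPM in Ncr1+/+ libraries. The ILC1 markers *Tbx21*, *Itga1* and *Klrb1c* (NK1.1) were present in every library. Of the 9 tested ILC1 markers, 3 had an edgeR adjusted p under 0.05. *Ncr1* and *Il7r* were lower in Ncr1gfp/gfp ILC1s and *Itga1* (CD49a) was higher. *Itga1* was between 928 and 1012 CPM in Ncr1gfp/gfp and between 732 and 805 CPM in Ncr1+/+ libraries. The NK cell factor *Eomes* was between 5.06 and 17.7 CPM in Ncr1gfp/gfp and between 5.85 and 8.35 CPM in Ncr1+/+ libraries. Of the 8 tested NK cell markers, 0 had an edgeR adjusted p under 0.05. Markers of T cells moved with the genotype, with 3 of the 6 tested higher in Ncr1gfp/gfp ILC1s at an edgeR adjusted p under 0.05 (*Cd3e*, *Cd3g* and *Cd8a*). *Lef1*, on the same list, went the other way, with a log2 fold change of -0.56 (edgeR adjusted p = 0.0529) and no overlap between the genotypes. The summed level of the 9 listed genes was between 653 and 847 CPM in Ncr1gfp/gfp libraries and between 481 and 602 CPM in Ncr1+/+ libraries, most of it *Cd3g*, while *Cd8b1* and *Cd5* were near 0, at most 0.841 and 2.80 CPM. The part of such RNA in the values below was not tested. The listed markers of B cells summed to at most 5.99 CPM and those of myeloid cells to at most 70.7 CPM, and those of endothelium to between 113 and 152 CPM. Nearly all of the last was *Pecam1*, between 111 and 149 CPM and without a called difference, whereas *Cdh5*, which defines endothelium, was at most 1.07 CPM.

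All 8 Krüppel-like factors passed the filter on low counts, and none met the thresholds for a changed gene in Ncr1gfp/gfp ILC1s. *Klf2*, *Klf3* and *Klf4* had the most negative log2 fold changes, at -0.87, -0.51 and -0.75, and *Klf10* and *Klf7* were the only members with a positive one, at 0.25 and 0.17. A gene was called when its Benjamini-Hochberg adjusted p-value in edgeR's quasi-likelihood test was under 0.05 and its fold change was above 1.5 or below 0.7. By that rule 0 of 8 members were called, against 84 of 11463 tested genes (0.733%). With DESeq2, with edgeR's likelihood ratio test and with limma-voom, 0 members were called as well. Without the fold threshold the quasi-likelihood test also passed 0 members, against 1.35% of all tested genes, while DESeq2 and the likelihood ratio test each passed 1 and limma-voom passed 0. At an unadjusted p under 0.05 the count was 4 of 8, namely *Klf2*, *Klf3*, *Klf4* and *Klf10*, against 11.4% of all tested genes. The levels of all 8 overlapped between the genotypes, whereas 3.11% of the tested genes did not overlap. Log2 fold changes were negative for 6 of 8 members, with a median of -0.17, against 49.3% of all tested genes and a median of 0.0027.

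**Figure D1:**
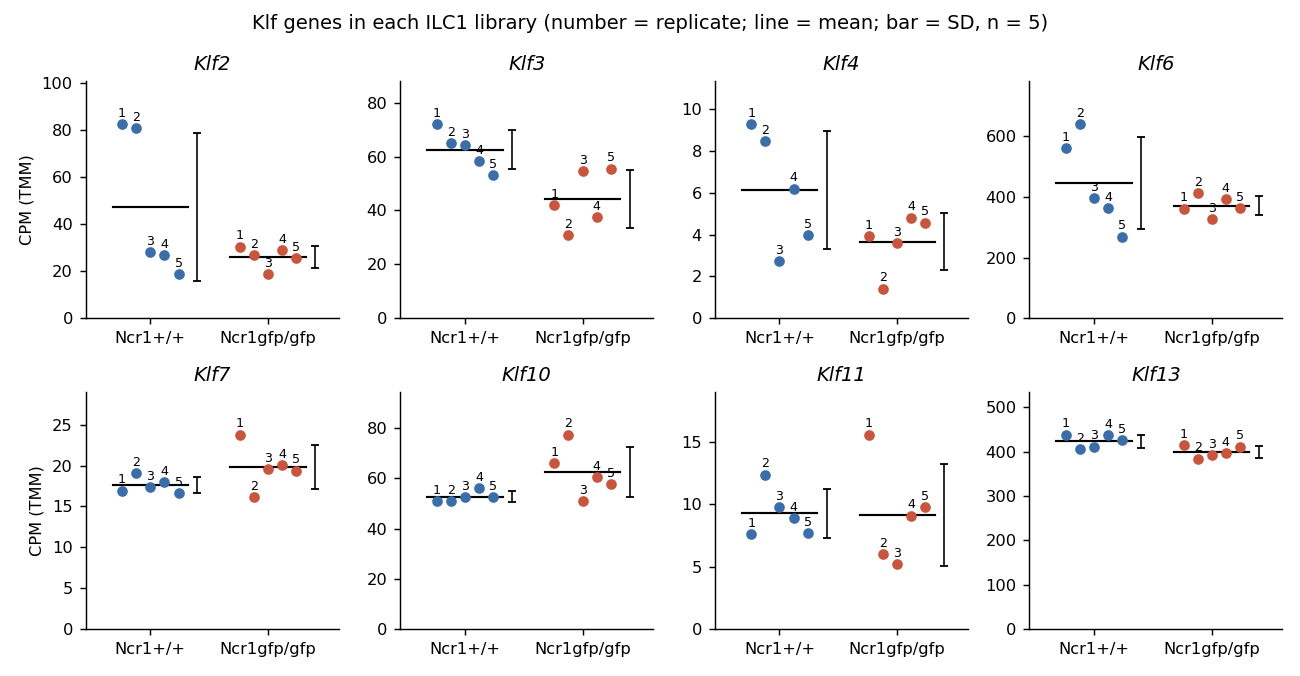
Level of each of the 8 Krüppel-like factors in CPM (vertical axis, linear, from 0) in the 5 Ncr1+/+ and the 5 Ncr1gfp/gfp ILC1 libraries. Points are libraries numbered by replicate, horizontal lines are means and bars are SD (n = 5). Ncr1+/+ replicates 1 and 2 sit at 82.6 and 80.7 CPM of *Klf2*, apart from the other 8 libraries, which lie between 18.6 and 30.4 CPM.

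To compare levels between genes, CPM was divided by the exon length of each gene in kilobases. *Klf6* and *Klf13* were the most abundant members in these cells, with medians over the 10 libraries of 89.8 and 64.3 CPM per kb. *Klf6* ranged from 63.8 to 152 CPM per kb and was above *Klf13* in 9 of 10 libraries, and *Klf13* was above *Klf3* in all 10. *Klf3* followed at 23.8 CPM per kb and was above *Klf2* in 7 of 10 libraries. *Klf2* at 15.1, *Klf7* at 13.9 and *Klf10* at 13.5 CPM per kb had no fixed order between neighbours, since *Klf2* exceeded *Klf7* in 6 and *Klf7* exceeded *Klf10* in 5 of 10 libraries. *Klf11* at 2.26 and *Klf4* at 1.41 CPM per kb were the least abundant, with *Klf11* above *Klf4* in 9 of 10 libraries.

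Without division by exon length, *Klf6* and *Klf13* together made up between 80.7% and 83.4% of the summed CPM of the 8 members in every library. Their exons are the longest among the 8 members, at 4217 and 6396 bases, which raises this share. The balance between these genes was less even from library to library. The ratios below are also not divided by exon length, so they compare libraries and not the levels of the genes. The ratio of *Klf6* to *Klf13* CPM was 0.872, 1.07, 0.838, 0.991 and 0.882 in Ncr1gfp/gfp replicates 1 to 5 and 1.28, 1.58, 0.961, 0.832 and 0.632 in Ncr1+/+ replicates 1 to 5. The Ncr1+/+ libraries thus held both the highest and the lowest ratios.

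*Klf2*, the factor of lymphocyte quiescence and trafficking, spans positions 74842961 to 74845553 of chromosome 8 (plus strand). Positions are those of the deposited table, which names no build and is not in GRCm38 coordinates. Its CPM was 30.4, 26.7, 18.6, 28.8 and 25.6 in Ncr1gfp/gfp replicates 1 to 5 and 82.6, 80.7, 28.0, 26.9 and 18.7 in Ncr1+/+ replicates 1 to 5. Ncr1+/+ replicates 1 and 2 were the high libraries, and the other 3 Ncr1+/+ libraries fell within the range of the Ncr1gfp/gfp libraries. Means were 26.0 ± 4.54 CPM for Ncr1gfp/gfp and 47.4 ± 31.5 CPM for Ncr1+/+ libraries (SD, n = 5 each). Their log2 fold change was -0.87 (standard error 0.30, 95% interval -1.49 to -0.24), with an adjusted p of 0.207 in edgeR's quasi-likelihood test. An exact permutation test of the mean log2 CPM, two-sided like all such tests here, gave p = 0.294, so the difference was within the spread. On the log2 scale the SD between libraries was 0.98 in Ncr1+/+ and 0.27 in Ncr1gfp/gfp ILC1s.

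The *Klf2* value rested on those Ncr1+/+ libraries. Without replicate 1 the log2 fold change was -0.57 and without replicate 2 it was -0.58. Without both it turned to 0.082 (95% interval -0.26 to 0.42, edgeR adjusted p = 0.926). The pair was chosen after seeing that it had the most *Klf2*, so a rise of this value was built into the choice. That fit, like those without both libraries for other members below, is a description and not a test. Without Ncr1+/+ replicate 5, the lowest Ncr1+/+ library, the log2 fold change of *Klf2* was -1.07 (edgeR adjusted p = 0.0480), which met the thresholds for a call.

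*Klf4*, a factor that restrains cell division and one of the reprogramming factors, is a close relative of KLF2 (chromosome 4, 55540009 to 55545347, minus strand). Its CPM was 3.94, 1.42, 3.60, 4.82 and 4.58 in Ncr1gfp/gfp replicates 1 to 5 and 9.31, 8.47, 2.75, 6.21 and 3.97 in Ncr1+/+ replicates 1 to 5. Ncr1+/+ replicates 1 and 2 were again the highest of all libraries, Ncr1gfp/gfp replicate 2 was the lowest with 31 counts, and the groups overlapped. The means were 3.67 ± 1.35 and 6.14 ± 2.81 CPM (SD, n = 5 each). Its log2 fold change of -0.75 (standard error 0.35, 95% interval -1.48 to -0.016) had an adjusted p of 0.420 in edgeR's test, and the exact permutation p was 0.151. Without Ncr1+/+ replicates 1 and 2 it was -0.24 (95% interval -1.07 to 0.59).

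*Klf6*, a broadly expressed member that responds early to stimuli, is on chromosome 13 (5860735 to 5869639, plus strand). It had 362, 412, 328, 393 and 363 CPM in Ncr1gfp/gfp replicates 1 to 5 and 562, 642, 395, 364 and 269 CPM in Ncr1+/+ replicates 1 to 5. The highest 2 libraries and the lowest were Ncr1+/+, so the Ncr1gfp/gfp values lay inside the Ncr1+/+ range. The SD of log2 CPM was 0.13 in Ncr1gfp/gfp and 0.50 in Ncr1+/+ ILC1s, around means of 372 and 446 CPM. With all libraries the log2 fold change was -0.26 (standard error 0.15, 95% interval -0.58 to 0.049), with an edgeR adjusted p of 0.539. It was 0.11 (95% interval -0.086 to 0.32, edgeR adjusted p = 0.752) when Ncr1+/+ replicates 1 and 2 were both left out.

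*Klf3*, a repressor that acts through the CtBP co-repressors, was the member closest to the threshold. Its position is 65194762 to 65221368 of chromosome 5 (plus strand). Its CPM was 42.1, 30.9, 54.5, 37.4 and 55.5 in Ncr1gfp/gfp replicates 1 to 5 and 72.2, 65.1, 64.1, 58.2 and 53.1 in Ncr1+/+ replicates 1 to 5. Ncr1gfp/gfp replicates 3 and 5 were above Ncr1+/+ replicate 5 and below the other 4 Ncr1+/+ libraries, and Ncr1gfp/gfp replicates 1, 2 and 4 were below all of them. Means were 44.1 ± 10.7 CPM for Ncr1gfp/gfp and 62.5 ± 7.23 CPM for Ncr1+/+ libraries (SD, n = 5 each).

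The log2 fold change of *Klf3* was -0.51 (standard error 0.13, 95% interval -0.78 to -0.23), a fold of 0.705 (95% interval 0.583 to 0.851). Its adjusted p of 0.0614 in edgeR's quasi-likelihood test missed the threshold, and its unadjusted exact permutation p was 0.0238, where 5 libraries against 5 cannot give less than 0.00794. That fold also missed the limit of 0.7. Of 8 other treatments of the same counts, 4 gave an adjusted p under 0.05. These were DESeq2 (0.0143), edgeR's likelihood ratio test (0.0148), and the edgeR test with at least 10 counts in every library (0.0402) or no filter (0.00405). The others were limma-voom (0.0982) and the edgeR test with RLE scaling (0.0628), upper-quartile scaling (0.0626) or a replicate block (0.0578). With 1 library left out at a time the log2 fold change stayed between -0.60 and -0.40, and the adjusted p was under 0.05 in 3 of 10 such edgeR fits, those without Ncr1gfp/gfp replicate 3 (0.0301), Ncr1gfp/gfp replicate 5 (0.0223) or Ncr1+/+ replicate 5 (0.0481). *Klf3* differed from *Klf2*, *Klf4* and *Klf6* in how it depended on Ncr1+/+ replicates 1 and 2: without both, its log2 fold change was -0.41 (95% interval -0.73 to -0.096, edgeR adjusted p = 0.285).

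**Figure D2:**
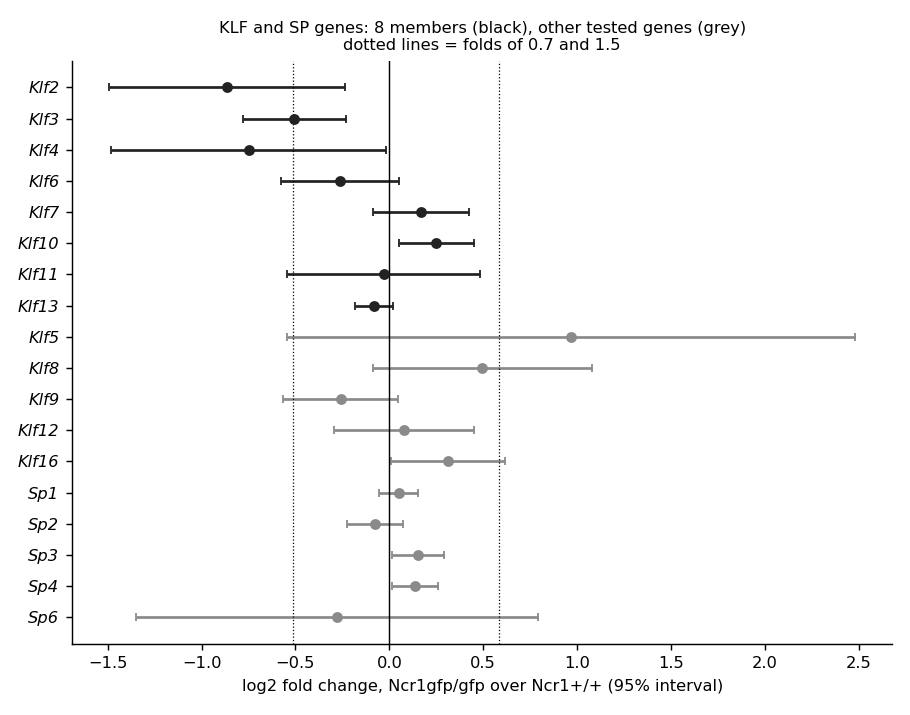
Log2 fold change, Ncr1gfp/gfp over Ncr1+/+ (horizontal axis), of the 8 described Krüppel-like factors (black) and the 10 other tested KLF and SP genes (grey). Points are edgeR estimates from 5 against 5 libraries, bars are 95% intervals, and dotted lines mark folds of 0.7 and 1.5. The intervals of *Klf2*, *Klf3*, *Klf4*, *Klf10*, *Klf16*, *Sp3* and *Sp4* exclude 0 before adjustment for the number of genes tested.

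*Klf10* and *Klf11* encode the TGF-β-inducible members, repressors that recruit SIN3A. *Klf10* (chromosome 15, 38221219 to 38230466, minus strand) had 66.2, 77.5, 50.9, 60.6 and 57.8 CPM in Ncr1gfp/gfp replicates 1 to 5 and 51.0, 51.0, 52.7, 56.2 and 52.7 CPM in Ncr1+/+ replicates 1 to 5. Of the Ncr1gfp/gfp libraries, 4 were above every Ncr1+/+ library and replicate 3 was just below all of them. Its log2 fold change was 0.25 (standard error 0.096, 95% interval 0.050 to 0.45, edgeR adjusted p = 0.274), and the exact permutation p was 0.0635. The Ncr1+/+ libraries were close together, with an SD of log2 CPM of 0.057 against 0.22 in Ncr1gfp/gfp ILC1s. *Klf11* (chromosome 12, 25336236 to 25347647, plus strand) had 15.6, 6.03, 5.19, 9.10 and 9.76 CPM in Ncr1gfp/gfp and 7.63, 12.4, 9.80, 8.88 and 7.67 CPM in Ncr1+/+ replicates 1 to 5. The highest and the lowest *Klf11* levels were both in Ncr1gfp/gfp libraries. A log2 fold change of -0.030 had a 95% interval of -0.54 to 0.48, so a fold between 0.686 and 1.40 could not be told from none at this spread.

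*Klf13*, which in T cells activates the chemokine gene *Ccl5*, was the steadiest member. It is on chromosome 7 (71031237 to 71083801, minus strand), 66.7 Mb from *Ncr1* on the same chromosome. Its CPM was 415, 384, 392, 397 and 412 in Ncr1gfp/gfp replicates 1 to 5 and 439, 405, 411, 437 and 426 in Ncr1+/+ replicates 1 to 5. The groups overlapped in a narrow band, around means of 399.9 ± 13.1 and 424 ± 15.0 CPM (SD, n = 5 each). Between genotypes the log2 fold change was -0.083 (standard error 0.048, 95% interval -0.18 to 0.017, edgeR adjusted p = 0.548). The exact permutation p was 0.0476, unadjusted for the 8 members tested in this way, of which *Klf3* was the other one under 0.05. The antisense gene *E030018B13Rik* overlaps *Klf13* in the table, and the library kit does not mark strand, so reads in the overlap cannot be told apart.

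*Klf7*, a widely expressed member best known from neurons, is on chromosome 1 (64082247 to 64167963, minus strand). Its CPM was 23.8, 16.2, 19.6, 20.1 and 19.4 in Ncr1gfp/gfp replicates 1 to 5 and 16.9, 19.1, 17.4, 18.0 and 16.7 in Ncr1+/+ replicates 1 to 5. Both the highest and the lowest library were Ncr1gfp/gfp. The microRNA gene *Mir6899* overlaps *Klf7* in the table, so reads there cannot be given to either gene alone. Between the genotypes the log2 fold change was 0.17 (standard error 0.12, 95% interval -0.085 to 0.42, edgeR adjusted p = 0.680), and the exact permutation p was 0.127.

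Ncr1+/+ replicates 1 and 2, which stood apart in *Klf2*, were then followed through the other genes. They were the highest 2 of the 10 libraries for 4 of 8 members, *Klf2*, *Klf3*, *Klf4* and *Klf6*, for 0 of the 10 other tested KLF and SP genes, and for 380 of all 11463 tested genes (3.32%). Among 16 immediate early genes it was so for 7, namely *Fos*, *Fosb*, *Jun*, *Jund*, *Dusp1*, *Zfp36* and *Btg2*, and among 7 heat shock genes for 0. The pair was picked by its *Klf2* level, so *Klf2* is among the 4 members by that choice. *Klf6* varied closely with *Klf2*, as described below. The share of members beside that of all tested genes is therefore not a test. *Fos*, which encodes a subunit of the transcription factor AP-1, had 243, 240, 117, 122 and 54.1 CPM in Ncr1+/+ replicates 1 to 5 and 42.6, 66.1, 45.8, 105 and 77.2 CPM in Ncr1gfp/gfp replicates 1 to 5. Ncr1+/+ replicate 5 was the lowest Ncr1+/+ library for *Fos*, as it was for *Klf2* and *Klf6*. *Egr1*, another immediate early gene, had 55.6 and 45.4 CPM in Ncr1+/+ replicates 1 and 2, inside the range of 36.0 to 65.0 CPM of the Ncr1gfp/gfp libraries. What part the state of these libraries had in the members' values was not tested.

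**Figure D3:**
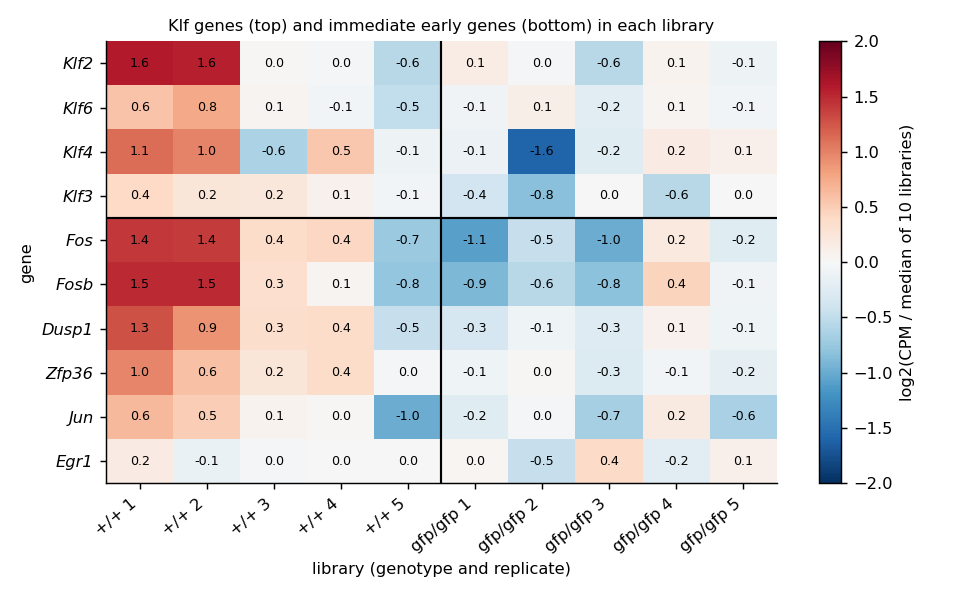
Log2 ratio of CPM to the median of the 10 libraries (colour and printed value) for 4 Krüppel-like factors (top rows) and 6 immediate early genes (bottom rows), in the 5 Ncr1+/+ libraries (left) and the 5 Ncr1gfp/gfp libraries (right). Ncr1+/+ replicates 1 and 2 are 1.59 and 1.56 above the median for *Klf2* and 1.42 and 1.40 above it for *Fos*.

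Of the 16 immediate early genes, 15 had a negative log2 fold change in Ncr1gfp/gfp ILC1s, with a median of -0.35, and 3 fell at an edgeR adjusted p under 0.05. *Zfp36*, which encodes an RNA-binding protein that speeds mRNA decay, was between 113 and 140 CPM in Ncr1gfp/gfp and between 134 and 269 CPM in Ncr1+/+ libraries. Its log2 fold change was -0.58 (standard error 0.13, edgeR adjusted p = 0.0179). *Junb*, an AP-1 subunit, fell by 0.46 on the log2 scale (standard error 0.11, edgeR adjusted p = 0.0334), and *Fos* fell by 1.21 (standard error 0.29, edgeR adjusted p = 0.0377). *Zfp36* and *Fos* met the fold threshold too. In edgeR's test 0 genes of the lists were called without Ncr1gfp/gfp replicate 3, without Ncr1+/+ replicate 1 or without both Ncr1+/+ replicates 1 and 2, and DESeq2 with all libraries called 0 as well. The 7 heat shock genes all had negative log2 fold changes with a median of -0.33, and 0 of them passed in edgeR's quasi-likelihood test, at the adjusted or the unadjusted threshold.

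**Figure D4:**
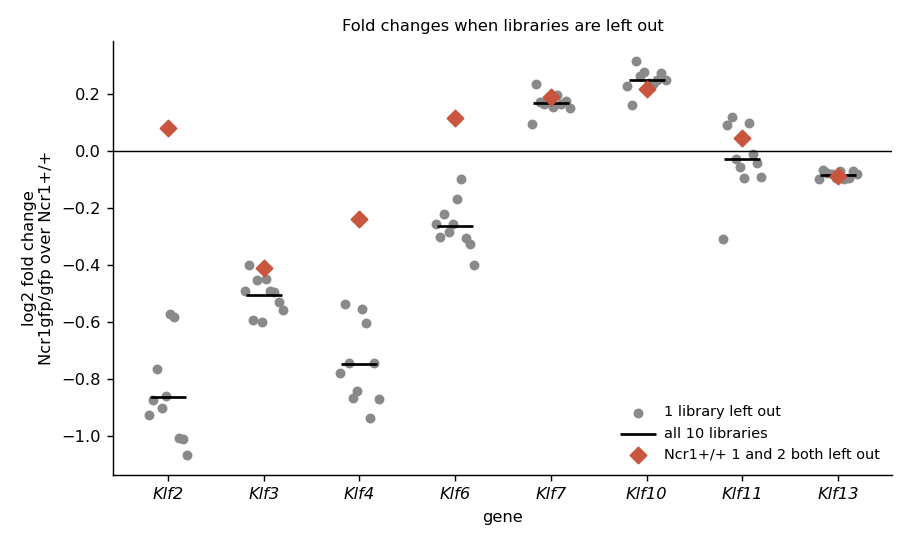
Log2 fold change, Ncr1gfp/gfp over Ncr1+/+ (vertical axis), of each Krüppel-like factor with all 10 libraries (black lines), with each library left out in turn (grey points) and with Ncr1+/+ replicates 1 and 2 both left out (red diamonds). *Klf2* goes from -0.87 to 0.082 and *Klf6* from -0.26 to 0.11 without both libraries, while *Klf3* goes from -0.51 to -0.41. The pair was chosen after seeing that it had the most *Klf2*.

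Without Ncr1+/+ replicates 1 and 2, 3 of 8 members had a negative log2 fold change, *Klf3*, *Klf4* and *Klf13*, and 0 were called by edgeR. *Klf10* and *Klf7* were at 0.22 and 0.19, near their values with all libraries.

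How the members varied together was described with Pearson correlations of log2 CPM over the 10 libraries, after each genotype's mean was subtracted. Libraries of one genotype share a gate and a kit, and no test was made. *Klf2* and *Klf6* were the most alike pair of members, at 0.95, and at 0.82 over the 8 libraries left without Ncr1+/+ replicates 1 and 2. *Klf2* and *Klf4* were at 0.59 over 10 and at 0.018 over 8 libraries, so their likeness rested on that pair of libraries. *Klf7* and *Klf11* were at 0.80 and 0.77, with Ncr1gfp/gfp replicate 1 the highest library for both. *Klf3* and *Klf10* went in opposite directions, at -0.82 and -0.83: Ncr1gfp/gfp replicate 2 had the least *Klf3* and the most *Klf10* of all libraries.

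The gene most like each member within genotypes was then sought among tested genes with a mean of at least 5 CPM. These were 9254 genes for each member, and 9255 for *Klf4*. Each value below is the highest of that many correlations over 10 libraries, so a high value alone does not show a link. For *Klf2* and *Klf6* the most alike gene was the same, *Rhob*, at 0.95 and 0.98. It encodes a small GTPase and is itself transcribed early after stimuli. The early genes *Dusp1* and *Fos* were at 0.89 and 0.83 with *Klf2* and at 0.91 and 0.89 with *Klf6*. *Egr1* was at -0.13 and -0.25, and *Egr2*, *Ier2*, *Ier3*, *Nr4a1* and *Myc* were between -0.52 and 0.24. Over the 8 libraries without Ncr1+/+ replicates 1 and 2, *Klf2* was at 0.80 with *Rhob*, 0.65 with *Dusp1* and 0.61 with *Fos*. *Klf6* was at 0.91, 0.89 and 0.78 with the same genes over these 8 libraries. For the other members it was *Vma21* with *Klf4* (0.93), *Zfp384* with *Klf7* (0.96), *Plekhf2* with *Klf10* (0.92), *Fam8a1* with *Klf11* (0.98) and *Rapgef1* with *Klf13* (0.92).

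*Klf3* was most like *Tlr6*, a gene of the Toll-like receptor family, at 0.995 over 10 libraries and at 0.996 over the 8 without Ncr1+/+ replicates 1 and 2. *Tlr6* is also the nearest tested gene after *Klf3* on chromosome 5, from 65344334 to 65351273 on the opposite strand, and begins 123 kb past the end of *Klf3*. The nearest tested gene on the other side, *Tbc1d1*, was at 0.16 with *Klf3*. *Tlr6* was expressed at a low level, with 4.57, 2.24, 6.99, 3.63 and 7.97 CPM in Ncr1gfp/gfp replicates 1 to 5 and 7.79, 6.88, 6.45, 5.40 and 4.35 CPM in Ncr1+/+ replicates 1 to 5. Within each genotype its libraries stood in the order of their *Klf3* level. Its log2 fold change of -0.28 (standard error 0.30, edgeR adjusted p = 0.813) was smaller than the spread. Of the other members, 0 had their most alike gene on their own chromosome.

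**Figure D5:**
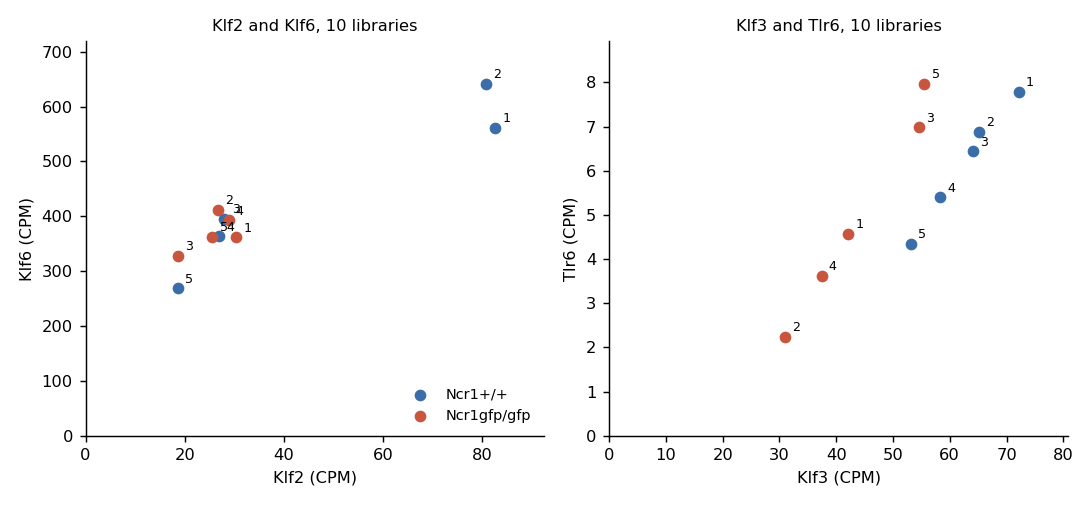
CPM of *Klf6* against *Klf2* (left) and of *Tlr6* against *Klf3* (right) in the 10 libraries, coloured by genotype and numbered by replicate, on linear axes from 0. *Klf2* and *Klf6* are high together in Ncr1+/+ replicates 1 and 2, and the libraries of each genotype stand in the same order for *Tlr6* as for *Klf3*.

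Of the 18 other KLF and SP genes, which share the zinc fingers and bind like sequences, 10 were tested and 0 were called or had an adjusted p under 0.05 in edgeR's quasi-likelihood test, with DESeq2 and limma-voom also calling 0. *Klf16*, *Sp3* and *Sp4* had an unadjusted p under 0.05, with log2 fold changes of 0.31, 0.15 and 0.14. The intervals were narrow for *Sp1*, the ubiquitous activator of the family (0.050, 95% interval -0.054 to 0.15), and for *Sp2* (-0.078, 95% interval -0.23 to 0.071). *Klf9*, *Klf12* and *Klf8* had log2 fold changes of -0.26, 0.080 and 0.50. *Klf5* and *Sp6* had low levels, at no more than 3.52 and 2.07 CPM.

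The genes upstream and downstream of the members were examined from lists chosen by function. *Foxo1* and the MEKK-MEK5-ERK5-MEF2 kinase pathway switch on *Klf2*, and WWP1, SMURF1 and FBXW7 mark KLF proteins for degradation. Of these 12 regulators 7 had a positive and 5 a negative log2 fold change, with a median of 0.029, and 0 had an edgeR adjusted p under 0.05. *Foxo1* was between 109 and 128 CPM in Ncr1gfp/gfp and between 122 and 129 CPM in Ncr1+/+ libraries, and Ncr1+/+ replicates 1 and 2 lay among the others at 123 and 122 CPM. *Mapk7*, the gene of ERK5, was highest in Ncr1+/+ replicate 1 at 38.0 CPM, with the other 9 libraries between 19.6 and 25.8 CPM.

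Of 13 co-factor genes 9 had a positive and 4 a negative log2 fold change, with a median of 0.028, and 0 had an edgeR adjusted p under 0.05, while 2 had an unadjusted p under it. One of these was *Ctbp2*, a partner of KLF3, with a log2 fold change of 0.75 (standard error 0.32, edgeR adjusted p = 0.347). *Ctbp1*, the more abundant CtBP gene in CPM, was at -0.10 (standard error 0.065).

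The trafficking genes that depend on KLF2 in T cells included some with low levels in these cells. *S1pr1*, whose product guides lymphocytes out of tissue, was between 0.150 and 2.02 CPM, and *Ccr7* at most 0.218 CPM. Ncr1+/+ replicates 1 and 2, with the most *Klf2*, had 2.02 and 0.574 CPM of *S1pr1*, the highest value and one inside the range of the other libraries. *Itgb7*, which encodes the β7 integrin chain, was between 646 and 788 CPM in all libraries, with a log2 fold change of 0.024 (95% interval -0.089 to 0.14). Of the 4 genes of this list that were tested, 0 had an adjusted or unadjusted p under 0.05 in edgeR's test.

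For *Klf10* and *Klf11*, the TGF-β ligand, receptors and SMADs were read alongside. Of these 10 genes 4 had a positive and 6 a negative log2 fold change, with a median of -0.0045, and 0 had an edgeR adjusted p under 0.05. *Tgfbr1*, the type I receptor, came closest by the adjusted p. It had 179, 253, 182, 206 and 206 CPM in Ncr1gfp/gfp replicates 1 to 5 and 155, 181, 165, 162 and 172 CPM in Ncr1+/+ replicates 1 to 5. Only Ncr1gfp/gfp replicate 1 overlapped the Ncr1+/+ libraries, and replicate 2 was the highest for *Tgfbr1* as for *Klf10*. The log2 fold change of *Tgfbr1* was 0.30 (standard error 0.080, edgeR adjusted p = 0.0713), and the exact permutation p was 0.0159. *Smad4* did not overlap between the genotypes, as for 3.11% of all tested genes. Its log2 fold change was 0.15 (standard error 0.068, edgeR adjusted p = 0.374), with the smallest possible exact permutation p, 0.00794. *Tgfb1* was at -0.061 (standard error 0.062) and *Tgfbr2* at 0.020 (standard error 0.053).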

How the data were processed

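Liver ILC1s of 5 Ncr1+/+ and 5 Ncr1gfp/gfp mice or pools were sequenced from 2 ng of total RNA (SMART-Seq v4, which does not mark strand, single reads of 51 cycles). After trimming and STAR alignment, the authors obtained gene counts from HTSeq and deposited them as 1 table of raw counts, with no normalization. Reads that HTSeq could not assign to 1 gene are not in such counts. The table also gives each gene's position and exon length. From the counts, genes were filtered with filterByExpr, scaled by TMM and tested with edgeR 4.0.16's quasi-likelihood test (genotype as the only term) in R 4.3.3, with Benjamini-Hochberg adjustment over 11463 genes. Standard errors were derived from the F statistics. Exact permutation tests used log2(CPM + 0.5). DESeq2 1.42.0, limma-voom 3.58.1, other scalings and filters, a replicate block and left-out libraries were alternatives. On simulated counts of 11374 genes the test recovered 77 of 98 genes changed 2-fold and 90 of 97 changed 4-fold, with 3 of 11179 unchanged genes called. In the 20 pairs of libraries of one genotype, counts differed by more than sampling noise (chi-square per gene 9.25 to 24.1). The members and gene lists were chosen with earlier results of these data known. All members were named, of the rest the tested KLF and SP genes, listed genes with an adjusted p under 0.05 and the most alike genes. Other genes were named after their values were seen. Sequences are not used here, and some listed genes are not reported here.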

Additional observations from a re-analysis of the deposited data

How the results depend on the processing

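In 341 fits of single KLF and SP genes, 325 kept direction and side of the adjusted p of 0.05, 9 crossed it, all for *Klf2* or *Klf3*, and 7 reversed. Reversed log2 fold changes were, for *Klf11*, 0.091 and 0.12 without Ncr1gfp/gfp replicates 2 and 3 and 0.097 without Ncr1+/+ replicate 2 (range -0.31 to 0.12 with 1 library left out), and for *Klf12* -0.040 without Ncr1gfp/gfp replicate 3 (range -0.040 to 0.17). Without both Ncr1+/+ replicates 1 and 2 (chosen after seeing the data) *Klf2* was at 0.082, *Klf6* at 0.11 and *Klf11* at 0.047, 3 members were lower, and 0 members passed the exact permutation test (smallest possible p 0.0179). The causes were not tested. Without a filter on low counts 131 genes, 1 member (*Klf2*) and 5 listed related genes were called and 2 members had an adjusted p under 0.05. That last count was 1 with DESeq2, the likelihood ratio test or at least 10 counts in every library. The likelihood ratio test called 138 genes and 4 related genes, DESeq2 0 and limma-voom 1 related gene. An absolute log2 fold change above 1 left 23 genes, and no fold threshold 155.

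With each library left out in turn, 60 to 98 genes, 0 to 2 members and 0 to 5 related genes were called, 0 to 2 members had an adjusted p under 0.05, and 0 to 3 passed the exact permutation test. The 2 members, *Klf2* and *Klf3*, passed without Ncr1+/+ replicate 5. *Klf3* was called without Ncr1gfp/gfp replicate 3 or 5. Replicate numbers are shared between genotypes, but same-numbered libraries did not deviate together (correlations -0.026 to 0.052). With the replicate block 87 genes and 0 members were called, and *Klf3* was at -0.53 (edgeR adjusted p = 0.0578). The lowest member count was 31, in 1 library.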

Other observations

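Several KLF and SP genes were absent or nearly so in these sorted cells. *Klf14*, *Klf17*, *Sp5*, *Sp7* and *Sp8* had 0 counts in all 10 libraries, and *Klf1*, the erythroid member, *Klf15* and *Sp9* were at most 0.350, 0.119 and 0.109 CPM. The summed level of the 9 SP genes was between 862 and 908 CPM in Ncr1gfp/gfp and between 807 and 897 CPM in Ncr1+/+ libraries, a narrower range than the 847 to 1284 CPM of the 8 described Krüppel-like factors in Ncr1+/+ libraries.

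All libraries held reads of the Y-linked gene *Ddx3y*, between 133 and 171 CPM, and at most 1.09 CPM of *Xist*, the pattern of male cells. *Alb*, a hepatocyte marker, was 38.0 CPM in Ncr1gfp/gfp replicate 3 and 28.0 CPM in Ncr1+/+ replicate 1. In the other 8 libraries it was at most 4.69 CPM. *Apoa1*, *Ttr* and *Fgb*, on the same list, were at 5.19, 4.98 and 4.66 CPM in Ncr1gfp/gfp replicate 3. In Ncr1+/+ replicate 1 they were at 1.29, 0.112 and 1.96 CPM. *Trf*, also listed, was between 120 and 146 CPM in all libraries. Within a genotype, 38 groups of 5 libraries (KLF and SP genes and library totals) were examined for a single library far from the rest, and 0 were found, where chance gives about 1.9. A pair of high libraries, as for *Klf2*, is not seen by that test.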
